A study of Bos taurus and Bos grunniens x Bos taurus and Bos grunniens with 18 samples.

Results

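The comparison described here sets the testis of the cattle-yak, the hybrid of cattle (Bos taurus) and yak, against the testis of cattle at the level of messenger RNA. It rests on 6 of the 9 mRNA libraries of the series, 3 from cattle-yaks and 3 from cattle, and the series holds 18 samples in all, with the small RNA libraries of the same kinds of animal counted. The animals were 4 years old, came from one cooperative and were castrated for the study, and the labels describe each library as a separate animal. They name no treatment and do not say which species was the dam of the hybrids. Levels are FPKM, fragments scaled to the length of the transcript and to the mapped fragments of the library, summed over the 22118 transcripts of the table to 19994 genes. Of these, 14091 genes had at least 1 FPKM in at least 3 of the 9 libraries and were tested, 12873 of them with a symbol. The series asks which transcripts differ between the sterile male hybrid and its parent species.

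The limit of 1 FPKM left 5903 genes out. Just inside it stood KCNH3, at 0.693, 1.00 and 1.48 FPKM in cattle-yak testes and 0.669, 1.07 and 0.889 FPKM in cattle testes. Just outside it stood RHOJ, at 1.44, 0.997 and 1.20 FPKM in cattle-yak testes and 0.165, 0.303 and 0.324 FPKM in cattle testes. Of the genes tested, 11185 had at least 1 FPKM in all 6 libraries. A further 798 had it in all 3 cattle libraries and in no cattle-yak library, and 714 had it in all 3 cattle-yak libraries and in no cattle library. Genes that passed through 1 group in this way had to differ, and they are part of every count below.

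Sperm are made in the seminiferous tubule, where spermatogonia divide by mitosis, spermatocytes pair and recombine their chromosomes in the long prophase of meiosis, and haploid spermatids build an acrosome, a flagellum and a nucleus packed with protamines. Sertoli cells nurse the germ cells inside the tubule, Leydig cells between the tubules make androgens, and contractile myoid cells wrap the tubule. In male hybrids between related mammals the germ line commonly stops in or around meiosis, and the cattle-yak is a known case in which the females are fertile and the males are not.

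Cattle-yak and cattle testes differed in most of the mRNAs that could be tested. With limma on log2(FPKM + 1), 11894 genes had an adjusted p under 0.05, which is 84.4% of those tested and is what a call means below. The calls were 7670 genes higher in cattle-yak (54.4%) and 4224 genes lower (30.0%). Calls of at least 1 on the log2 scale numbered 4496 higher (31.9%) and 2813 lower (20.0%). At a change of at least 2 more genes were lower than higher, 461 genes standing higher and 1480 lower. At 4 the numbers were 10 higher and 423 lower, and at 6 they were 1 and 96. The split of calls depends on how the libraries are scaled. FPKM as deposited set the median gene 0.50 higher in cattle-yak on the log2 scale. Scaling by the median ratio of each library moved that median by −0.48 to 0.02 and gave 5550 genes higher (39.4%) and 5710 lower (40.5%), so that 49.3% of calls were higher and not 64.5%. The counts without any 1 of the 6 libraries lay between 7424 and 7564 higher and between 4060 and 4218 lower. Changes given below are on the deposited scale, and a change can be read against the median of all genes by taking 0.50 from it. The 3 libraries of each kind stayed together, with correlations across genes of 0.977 to 0.986 among cattle-yak libraries and 0.984 to 0.987 among cattle libraries, against 0.564 to 0.668 between the kinds, where genes are not independent replicates. FPKM summed to 408528 to 446486 in cattle-yak libraries and 462585 to 470377 in cattle libraries.

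The share of genes that fell was larger at higher cattle levels. Among the 358 genes with a cattle mean of at least 200 FPKM, 56.98% were called lower by at least 1 and 8.66% higher by at least 1, with a median log2 change of −1.53. Among the 5986 genes with a cattle mean of 1 to 10 FPKM the same shares were 11.7% lower and 43.8% higher, with a median of 0.86. Groups of genes formed on the cattle mean share that mean with the fold change, so these shares are a description only. The 423 genes called lower by at least 4 held 0.378, 0.334 and 0.129% of all FPKM in the cattle-yak libraries, against 18.5, 16.6 and 15.4% in the cattle libraries. All genes called higher held 67.4, 68.4 and 71.9% of FPKM in cattle-yak testes and 27.3, 28.4 and 27.4% in cattle testes. Because FPKM are shares of a library, a fall of abundant mRNAs raises the share of all others. The 10 most abundant genes took 3.58 to 4.10% of FPKM in cattle-yak libraries and 6.72 to 10.1% in cattle libraries. In cattle-yak testis they included INSL3, the insulin-like peptide of Leydig cells, and AARD, a gene known from Sertoli cells in mice, while in cattle testis they included the protamine PRM1 and the transition protein TNP1.

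**Figure D1:**
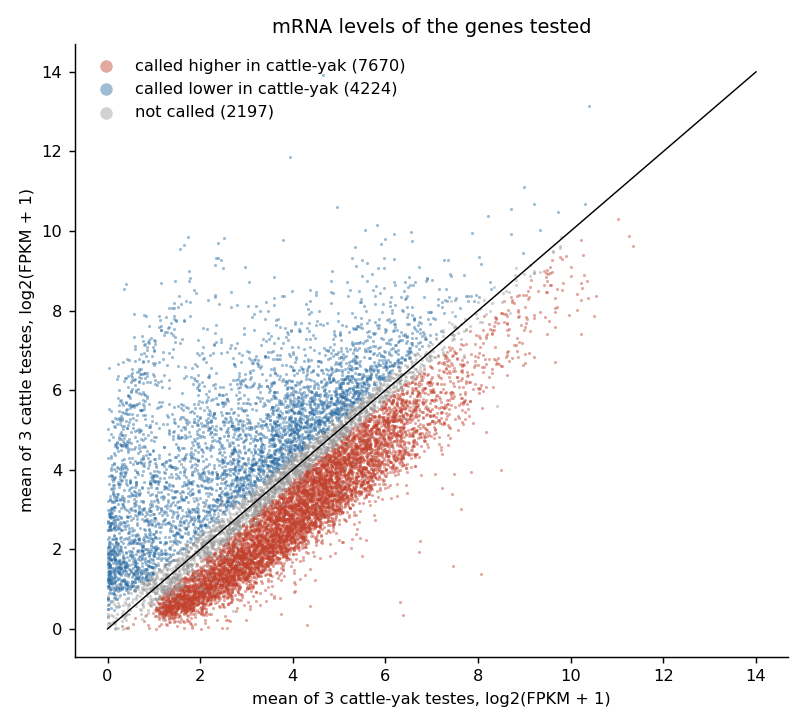
Mean level of each of the 14091 genes tested in 3 cattle-yak testes (horizontal axis) and in 3 cattle testes (vertical axis), both as log2(FPKM + 1), with the 7670 genes called higher in red, the 4224 called lower in blue and the 2197 not called in grey. The black line marks equal levels. Points called higher lie in a narrow band beside the line, whereas points called lower spread far above it, up to cattle levels over 200 FPKM at cattle-yak levels near 0.

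TMSB4 led the 12 increases named here, and the others include LHCGR, CYP11A1 and SCARB1, which act in steroid synthesis. Genes were named by size of change among called genes whose libraries did not overlap between the kinds, as held for 86.2% of all genes tested, leaving out genes named in an earlier account of these data. TMSB4, a thymosin that binds free actin, had 186, 207 and 125 FPKM in cattle-yak testes, against 10.8, 10.7 and 6.803 FPKM in cattle testes. Its log2 change was 4.05 ± 0.26 (SE) with an adjusted p of 3.24e-07 (limma). Every cattle-yak value was more than 10 times every cattle value. LHCGR, the receptor through which luteinising hormone drives the Leydig cell, had 15.2, 36.9 and 28.9 FPKM in cattle-yak and 2.87, 2.44 and 2.34 FPKM in cattle testes. CYP11A1, the enzyme that cuts the side chain of cholesterol in the first step of steroid synthesis, had 39.3, 14.3 and 58.7 FPKM in cattle-yak and 3.39, 2.73 and 3.14 FPKM in cattle testes. SCARB1, a receptor that takes up cholesterol from lipoproteins, had 20.2, 26.4 and 40.7 FPKM in cattle-yak and 3.81, 2.36 and 2.07 FPKM in cattle testes. The log2 changes of these 3 genes were 2.90 ± 0.31, 3.03 ± 0.41 and 2.98 ± 0.30 (SE), and their adjusted p was 9.96e-06, 4.61e-05 and 6.51e-06 (limma). CYP11A1 was uneven among cattle-yaks, the animal with the lowest value still standing above all 3 cattle.

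ALDH1A1, which makes retinoic acid from retinal, had 544, 821 and 1075 FPKM in cattle-yak testes, against 120.3, 114 and 79.01 FPKM in cattle testes, a log2 change of 2.92 ± 0.30 (SE). PDE5A, a phosphodiesterase that breaks down cyclic GMP, had 105, 60.8 and 95.9 FPKM in cattle-yak and 9.24, 10.1 and 9.68 FPKM in cattle testes. GSTP1, a glutathione transferase, had 80.1, 84.6 and 59.4 FPKM in cattle-yak and 13.7, 5.098 and 8.74 FPKM in cattle testes. All 3 were higher in every cattle-yak than in any cattle testis, which the naming rule required. MT1E, a metallothionein that binds zinc and copper, had 28.99, 58.8 and 73.7 FPKM in cattle-yak testes, against 5.25, 5.52 and 6.37 FPKM in cattle testes. RGN, a calcium-binding protein also called regucalcin, had 24.7, 45.96 and 57.4 FPKM in cattle-yak and 5.04, 4.598 and 1.998 FPKM in cattle testes. ITIH4, an inhibitor heavy chain of blood plasma, and SCG5, a secretory granule protein, were lower in level but changed as much, with log2 changes of 3.31 ± 0.39 and 3.01 ± 0.35 (SE). SDSL, a serine dehydratase-like enzyme, rose by 3.02 ± 0.16 (SE). Across these 12 genes the log2 changes lay between 2.90 and 4.05, and they stayed between 2.36 and 3.50 under median-ratio scaling.

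The 12 decreases named by the same rule were led by MT-ND3 and MT-ATP8 of the mitochondrial genome, given further on, and include several genes known from spermatids. PRSS37, a serine protease-like protein that sperm need to migrate into the oviduct in mice, had 0.676, 1.29 and 0.334 FPKM in cattle-yak testes, against 277, 221 and 201 FPKM in cattle testes, a log2 change of −7.07 ± 0.19 (SE) with an adjusted p of 1.26e-09 (limma). CAPZA3, the capping protein subunit of sperm actin, had 1.49, 3.097 and 0.536 FPKM in cattle-yak and 322, 289 and 257 FPKM in cattle testes. HILS1, a linker histone of the spermatid nucleus, had 2.19, 3.98 and 1.08 FPKM in cattle-yak and 386, 464 and 494 FPKM in cattle testes. The levels in cattle-yak testes were below 5 FPKM in every animal for all 3 genes, and those in cattle testes were above 200 FPKM. PRM3, a protamine-like protein that stays in the spermatid cytoplasm, had 2.18, 4.06 and 0.898 FPKM in cattle-yak testes, against 540.01, 437 and 312 FPKM in cattle testes. LLCFC1, a sperm protein needed for fusion with the egg in mice, had 1.87, 3.62 and 1.61 FPKM in cattle-yak and 630.05, 486 and 412 FPKM in cattle testes. GSG1, a germ cell protein that binds a poly(A) polymerase of the testis in mice, had 4.49, 7.18 and 1.03 FPKM in cattle-yak and 664, 606 and 654 FPKM in cattle testes. TXNDC8, a thioredoxin of spermatids, IQCF1, an acrosomal protein in mice, FAM209A, and C5H12orf54 fell by log2 changes of 7.05 ± 0.43, 6.81 ± 0.32, 6.81 ± 0.43 and 6.97 ± 0.31 (SE). TXNDC8 was listed at 0 in cattle-yak 3.

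Of the 13 protein genes of the mitochondrial genome, 12 were called lower in cattle-yak and 1 higher. MT-ND3, a subunit of respiratory complex I, had 0.312, 0.291 and 0.371 FPKM in cattle-yak testes, against 495, 494 and 218 FPKM in cattle testes, while the 3 yak libraries had 0.0707, 0.642 and 0.477 FPKM. MT-ATP8, a subunit of ATP synthase, had 0.411, 0.255 and 0.198 FPKM in cattle-yak and 445, 452 and 228 FPKM in cattle testes, and the yak libraries had 0, 0.288 and 0.202 FPKM. In these genes the cattle-yak and yak libraries were alike near 0, but in 9 of the 13 every cattle-yak library stood above every yak library. COX1, a subunit of cytochrome oxidase, had 582, 586 and 609.8 FPKM in cattle-yak and 1713, 1826 and 1341 FPKM in cattle testes, and the yak libraries had 95.2, 167 and 177 FPKM. MT-ATP6, another subunit of ATP synthase, was the gene called higher, at 125, 83.7 and 116 FPKM in cattle-yak testes, against 32.4, 28.9 and 20.5 FPKM in cattle testes, with 35.0, 18.6 and 52.8 FPKM in the yak libraries. Its log2 change was 1.95 ± 0.32 (SE), and the gene was chosen after its values were seen. The submitters' processing notes name a cattle genome build, and what reads of yak mitochondrial DNA do on it was not tested.

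**Figure D2:**
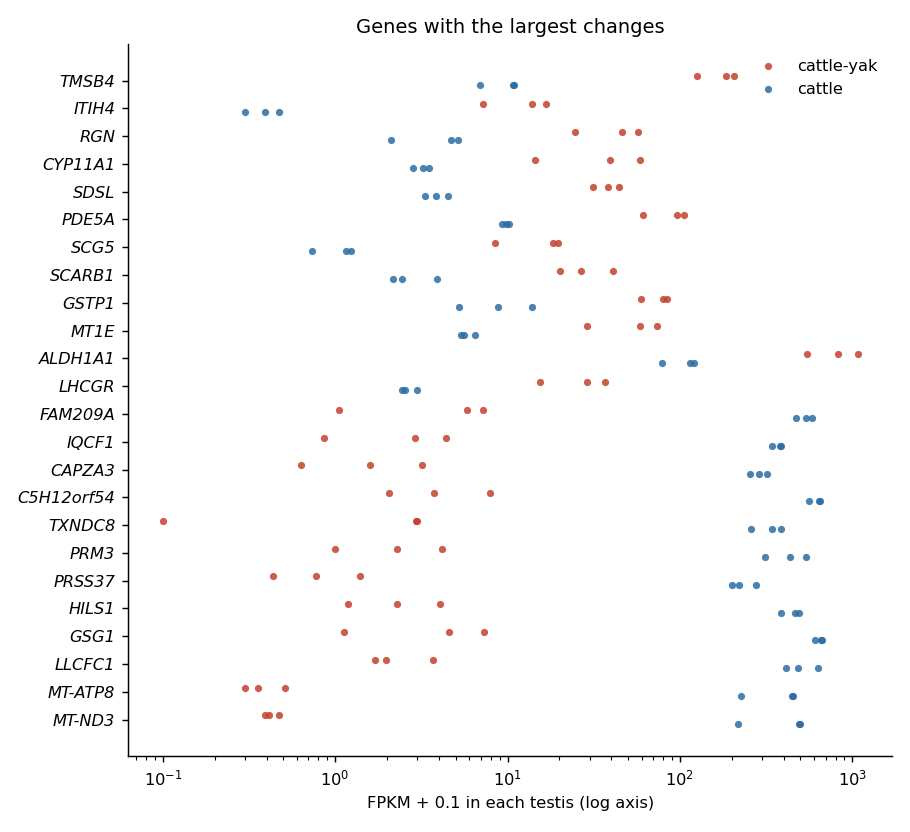
FPKM plus 0.1 in each testis, on a log axis, for the 12 genes with the largest increases (top) and the 12 with the largest decreases (bottom) that the naming rule took, with cattle-yak testes in red above cattle testes in blue for every gene. The 3 cattle-yak points and the 3 cattle points do not overlap in any of the 24 genes, which the naming rule required, and the spread among cattle-yaks is wide for genes such as TXNDC8 and FAM209A.

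Gene lists were then read in the order of germ cell development. A bulk testis cannot separate fewer cells of a kind from less RNA per cell, and this holds for every list that follows. Across all genes tested 54.4% were called higher and 30.0% lower, with a median log2 change of 0.50, and each list's count stands beside that background. Cattle-yak and cattle libraries did not overlap in 86.2% of all genes tested, so a lack of overlap in a named gene is the usual case. Besides the genes taken by the naming rule, some members are named because they went against their list, and these were chosen after their values were seen.

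Spermatogonial genes were higher in cattle-yak testis. Of 15 tested, 14 were called higher and 1 lower, with a median of 1.34. UCHL1, a ubiquitin hydrolase abundant in spermatogonia, had 66.99, 93.5 and 111 FPKM in cattle-yak testes, against 22.3, 29.5 and 22.3 FPKM in cattle testes. KIT, the receptor that marks differentiating spermatogonia, had 21.3, 22.2 and 20.3 FPKM in cattle-yak and 6.89, 7.98 and 6.62 FPKM in cattle testes. ETV5, a transcription factor of stem cell renewal, had 18.3, 16.3 and 18.6 FPKM in cattle-yak and 4.92, 3.91 and 3.39 FPKM in cattle testes. None of the 3 overlapped between the groups, and their log2 changes were 1.81 ± 0.29, 1.45 ± 0.12 and 1.90 ± 0.16 (SE). STRA8, which is switched on by retinoic acid as germ cells enter meiosis, had 19.7, 29.3 and 21.1 FPKM in cattle-yak testes, against 18.9, 18.7 and 12.5 FPKM in cattle testes, a change of 0.46 ± 0.19 (SE) that stood at −0.08 under median-ratio scaling. Its call was lost without cattle-yak 2, at 0.30, and without cattle 3, at 0.28. It was also lost with a pseudocount of 0.1 or 0.01, with quantile normalisation, with no filter and with only the 6 libraries. BCL6B, another self-renewal factor, went the other way at 1.53, 1.07 and 1.497 FPKM in cattle-yak and 2.92, 2.705 and 4.897 FPKM in cattle testes. Under median-ratio scaling 11 members were called higher and 1 lower.

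Genes of the mitotic cycle had shares of calls near those of all genes tested, 54.4% higher and 30.0% lower. Of 29 tested, 16 were called higher and 8 lower, with a median of 0.38 that turned to −0.17 under median-ratio scaling, where 10 were higher and 12 lower. MCM6, a subunit of the replicative helicase, had 80.7, 124 and 89.96 FPKM in cattle-yak testes, against 31.6, 36.4 and 37.7 FPKM in cattle testes, and E2F1, the factor that drives entry into S phase, had 18.97, 27.99 and 26.7 FPKM in cattle-yak and 5.07, 4.14 and 5.54 FPKM in cattle testes. PLK1, a kinase of the mitotic and meiotic spindle, had 7.0002, 7.87 and 6.35 FPKM in cattle-yak testes, against 29.3, 33.4 and 43.2 FPKM in cattle testes. CCNB2, a cyclin of M phase, had 25.6, 32.9 and 21.2 FPKM in cattle-yak and 69.5, 80.02 and 86.2 FPKM in cattle testes, and AURKA, a spindle kinase, had 19.3, 19.1 and 13.9 FPKM in cattle-yak and 46.1, 46.9 and 51.1 FPKM in cattle testes. The log2 changes were 1.43 ± 0.16 for MCM6 and 2.10 ± 0.19 for E2F1, against −2.16 ± 0.15, −1.55 ± 0.15 and −1.42 ± 0.14 (SE) for PLK1, CCNB2 and AURKA. PCNA, the clamp of DNA polymerase, changed by −0.37 ± 0.12 (SE), a call that was lost with libraries scaled to equal totals or by quantiles, and TOP2A, which untangles DNA, by 0.47 ± 0.14. TOP2A stood at −0.08 under median-ratio scaling.

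Genes of meiotic prophase were spread around the cattle level. Of 29 tested, 6 were called higher, 12 lower and 11 not called, with a median of −0.41. Under median-ratio scaling 2 were higher and 18 lower. SYCE1, a central element of the synaptonemal complex, had 28.03, 25.9 and 15.2 FPKM in cattle-yak testes, against 108, 108 and 104 FPKM in cattle testes, a log2 change of −2.20 ± 0.19 (SE). HORMAD2, a chromosome axis protein that marks unpaired chromosomes, had 36.9, 39.5 and 21.5 FPKM in cattle-yak and 108, 123 and 124 FPKM in cattle testes. In the opposite direction, SYCP3, which builds the lateral element of the same complex, had 67.6, 114 and 91.3 FPKM in cattle-yak and 29.8, 28.7 and 26.6 FPKM in cattle testes, a change of 1.61 ± 0.17 (SE). Members of one structure therefore had unequal changes in the same libraries. ZCWPW1, a reader of histone marks at recombination sites, had 70.1, 107 and 75.3 FPKM in cattle-yak testes, against 27.05, 27.4 and 26.9 FPKM in cattle testes, a change of 1.57 ± 0.15 (SE). HORMAD1, the partner of HORMAD2, had 104, 114 and 63.5 FPKM in cattle-yak and 87.6, 103 and 99.4 FPKM in cattle testes, and its change of −0.09 ± 0.19 (SE) was not called (adjusted p = 0.674, limma), although it was called lower under median-ratio scaling, at −0.65. The cattle-yak values of HORMAD1 lay on both sides of the cattle values. MAEL and STAG3, the first a germ granule protein that represses transposons and the second a cohesin subunit of meiosis, fell by 1.71 ± 0.11 and 0.76 ± 0.14 (SE).

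Genes of the pachytene checkpoint and the sex body, which silence the X and Y chromosomes in spermatocytes and respond to unrepaired breaks, were 13 of 23 higher and 6 lower. Those shares were near the 54.4% higher and 30.0% lower of all genes tested. The list median of 0.37 turned to −0.10 under median-ratio scaling, with 8 higher and 10 lower. SCML2, a polycomb protein of the sex body in mice, had 30.3, 39.8 and 27.5 FPKM in cattle-yak testes, against 11.6, 10.5 and 9.73 FPKM in cattle testes, a log2 change of 1.52 ± 0.17 (SE). H2AFX, the histone that is phosphorylated over the sex body, had 35.2, 49.2 and 39.5 FPKM in cattle-yak and 10.5, 17.3 and 17.2 FPKM in cattle testes. BRCA2, which loads recombinase onto breaks, had 9.55, 10.9 and 10.1 FPKM in cattle-yak and 3.46, 3.33 and 3.37 FPKM in cattle testes. All 3 were higher in each cattle-yak than in any cattle testis. UBE2B rose by 0.37 ± 0.11 and stood at −0.19 under median-ratio scaling, and USP7 was not called at −0.19 ± 0.11 (SE) but was called lower under that scaling, at −0.75. Both act on the ubiquitin marks of chromatin.

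Genes of late spermatocytes and of the meiotic divisions were mostly lower, 14 of 21, with 6 higher and a median of −0.92. ADAD1, an RNA-binding protein of late spermatocytes and spermatids, had 46.9, 39.6 and 20.6 FPKM in cattle-yak testes, against 300.3, 314 and 376 FPKM in cattle testes. CCNA1, the cyclin of the first meiotic division, had 9.06, 8.01 and 3.91 FPKM in cattle-yak and 69.2, 65.7 and 68.6 FPKM in cattle testes. PIWIL1, the Argonaute that binds pachytene piRNAs, had 54.7, 37.7 and 11.3 FPKM in cattle-yak and 187, 183 and 218 FPKM in cattle testes. Their log2 changes were −3.24 ± 0.25, −3.17 ± 0.23 and −2.72 ± 0.43 (SE), and no cattle-yak value reached the lowest cattle value. PIWIL1 was uneven among cattle-yaks, with the highest value in the first animal and the lowest in the third. Against the list, NXT2, an mRNA export factor, had 72.5, 81.4 and 93.9 FPKM in cattle-yak testes, against 18.1, 20.5 and 17.3 FPKM in cattle testes and TAF7L, a germ cell form of a general transcription factor, had 83.2, 79.96 and 92.2 FPKM in cattle-yak and 22.6, 22.2 and 19.5 FPKM in cattle testes. CKS2, a subunit of cyclin-dependent kinases, was not called at −0.25 ± 0.17 (SE) but was called lower under median-ratio scaling, at −0.80. The medians of the 5 lists given so far, from spermatogonia to late spermatocytes, were thus 1.34, 0.38, −0.41, 0.37 and −0.92, with the checkpoint list above both of its neighbours.

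**Figure D3:**
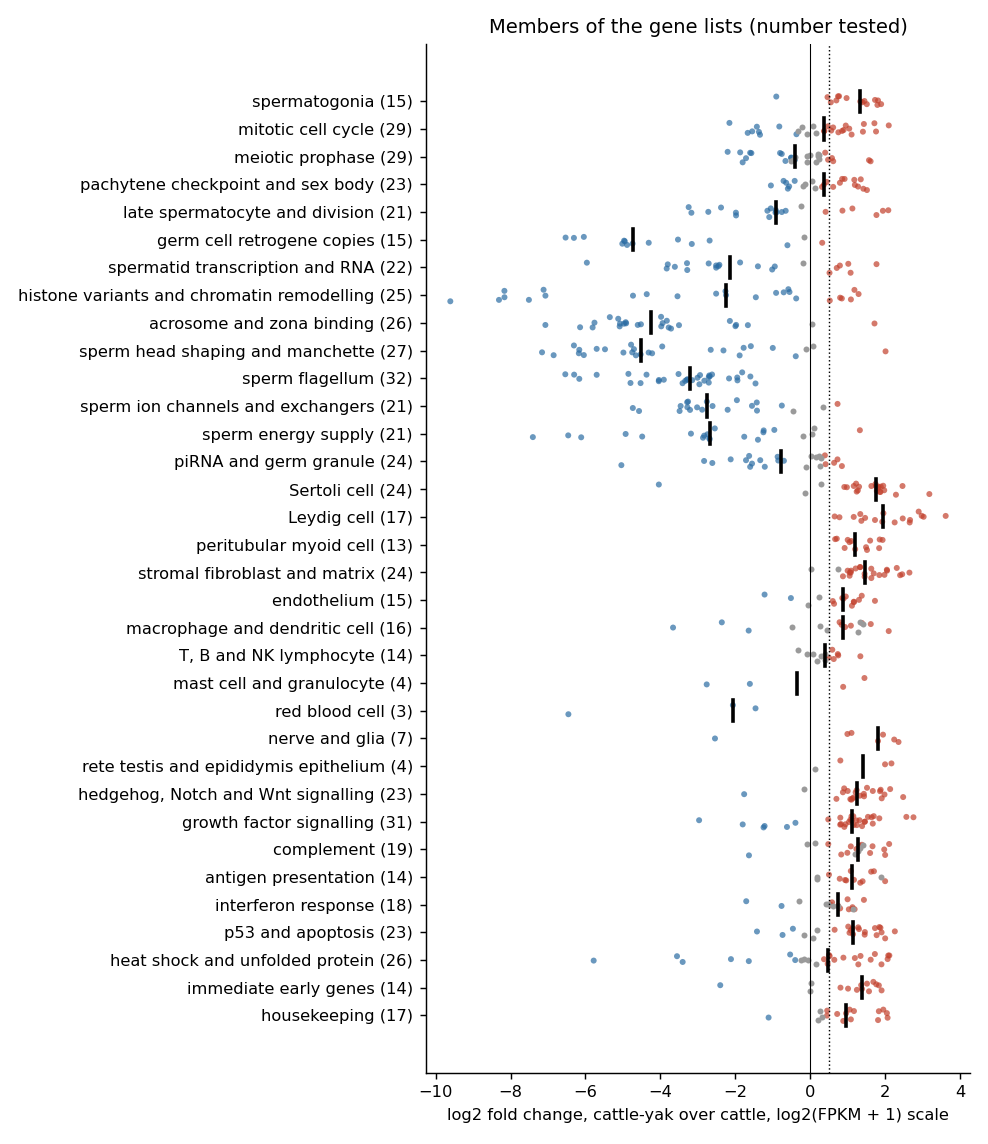
Log2 fold change, cattle-yak over cattle on the log2(FPKM + 1) scale, of every tested member of 34 gene lists, with the number tested in parentheses, members called higher in red, called lower in blue and not called in grey. Black bars are list medians, the solid line marks 0 and the dotted line the median of all genes at 0.50. Spermatogonia have a median of 1.34 and the acrosome of −4.25, and the Sertoli, Leydig, myoid and stromal lists have their medians to the right of the dotted line.

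The spermatid lists were mostly lower. The list of germ cell retrogene copies holds mostly testis copies of widely used genes, several of which stand in for X-linked relatives during meiosis. Of 15 tested, 13 were called lower and 1 higher, with a median of −4.74. ACTRT2, an actin-related protein of the sperm head, had 1.41, 1.96 and 0.300 FPKM in cattle-yak testes, against 219.6, 171 and 192 FPKM in cattle testes, a log2 change of −6.53 ± 0.25 (SE). PHF7, a histone reader that acts before histones leave the spermatid nucleus, had 86.6, 75.4 and 23.6 FPKM in cattle-yak and 666, 565 and 670.2 FPKM in cattle testes. GK2, a glycerol kinase, had 16.2, 13.03 and 3.73 FPKM in cattle-yak and 269, 314 and 257 FPKM in cattle testes. The third cattle-yak had the lowest of the 3 hybrid values in each of these genes. RPL10L, the copy of a ribosomal protein that replaces its X-linked parent in spermatocytes, fell by 3.16 ± 0.40 (SE), and CSTF2T, a copy of a cleavage factor, rose by 0.32 ± 0.10 but stood at −0.21 under median-ratio scaling and lost its call with quantile normalisation.

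Regulators of spermatid transcription and RNA were 15 lower and 6 higher of 22, with a median of −2.15. CREM, the activator that switches on spermatid genes, had 17.5, 15.6 and 6.52 FPKM in cattle-yak testes, against 163, 194 and 207 FPKM in cattle testes, a log2 change of −3.83 ± 0.28 (SE). FHL5, its coactivator, had 0.363, 1.42 and 0 FPKM in cattle-yak and 88.6, 90.001 and 97.2 FPKM in cattle testes. YBX2, which stores and holds back spermatid mRNAs, had 42.8, 32.3 and 9.82 FPKM in cattle-yak and 324, 357 and 368 FPKM in cattle testes. The cattle-yak values of CREM were 6.52 to 17.5 FPKM, so its mRNA was still present, whereas FHL5 was listed at 0 in cattle-yak 3. RFX2, a factor that activates cilium genes in spermatids, fell by 3.61 ± 0.33 (SE). ELAVL2, an RNA-binding protein, was the member that rose most, by 1.77 ± 0.16 (SE).

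Histone variants and chromatin remodellers were 19 lower and 6 higher of 25, with a median of −2.25. HIST1H2BA, a testis form of histone H2B, had 654, 633 and 235 FPKM in cattle-yak testes, against 2442, 2291 and 1927 FPKM in cattle testes, a change of −2.26 ± 0.34 (SE). CHD5, a remodeller needed for the exchange of histones in spermatids, had 0.665, 0.651 and 0.457 FPKM in cattle-yak and 31.2, 30.6 and 33.3 FPKM in cattle testes, a change of −4.36 ± 0.11 (SE). HIST1H2BA was thus still abundant in cattle-yak testis, while CHD5 stayed under 1 FPKM in each animal. H3F3A and H3F3B, which both encode the replacement histone H3.3, rose by 0.85 ± 0.11 and 0.52 ± 0.12 (SE), and H3F3B stood at −0.04 under median-ratio scaling. Histone genes have near-identical copies, and how reads were split among them is not known.

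The acrosome, the enzyme-filled cap with which sperm meet the egg coat, showed one of the lowest medians of the lists at −4.25. Of 26 tested, 24 were called lower and 1 higher. CRISP2, a cysteine-rich protein of the acrosome and tail, had 19.003, 14.4 and 5.02 FPKM in cattle-yak testes, against 995, 849 and 775 FPKM in cattle testes, a log2 change of −6.14 ± 0.36 (SE). ACRV1, an acrosomal matrix protein, had 0.539, 0.476 and 0 FPKM in cattle-yak and 43.9, 45.5 and 45.3 FPKM in cattle testes. SPAM1, the sperm hyaluronidase, had 0.804, 0.519 and 0.146 FPKM in cattle-yak and 44.5, 50.8 and 50.4 FPKM in cattle testes. ACRV1 and SPAM1 were below 1 FPKM in all cattle-yaks and above 40 FPKM in all cattle. AGFG1, which vesicles need to fuse into an acrosome in mice, kept more, with 51.96, 56.7 and 48.99 FPKM in cattle-yak testes, against 163, 167 and 174 FPKM in cattle testes, while its relative AGFG2 had 18.04, 18.3 and 22.4 FPKM in cattle-yak and 4.69, 6.04 and 5.02 FPKM in cattle testes, a change of 1.72 ± 0.19 (SE). GOPC, a Golgi protein of acrosome vesicles, was not called at 0.05 ± 0.10 (SE) but was called lower under median-ratio scaling, at −0.49.

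Genes of the sperm head and the manchette, the microtubule skirt that shapes it, were 24 lower and 1 higher of 27, with a median of −4.53. ACTL7B, an actin-like protein of spermatids, had 6.88, 8.19 and 1.08 FPKM in cattle-yak testes, against 326, 339 and 388 FPKM in cattle testes, a change of −6.04 ± 0.45 (SE). MEIG1, which carries cargo along the manchette, had 18.5, 15.2 and 5.43 FPKM in cattle-yak and 309, 367 and 314 FPKM in cattle testes. CCIN, the calyx protein of the head, had 1.81, 2.76 and 0.580 FPKM in cattle-yak and 179, 179.6 and 194 FPKM in cattle testes. The third cattle-yak had the lowest value of each of these 3 genes. HOOK3, a cargo adaptor of general use, went the other way at 76.4, 62.04 and 72.8 FPKM in cattle-yak testes, against 16.1, 17.4 and 16.4 FPKM in cattle testes, a change of 2.01 ± 0.16 (SE), while HOOK1, its relative in the manchette, fell by 1.58 ± 0.12 (SE).

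All 32 tested genes of the flagellum were called lower, with a median of −3.21, and all 32 remained lower under median-ratio scaling. ODF1, the main protein of the outer dense fibres, had 1.12, 1.89 and 0.426 FPKM in cattle-yak testes, against 219, 188 and 168 FPKM in cattle testes, a log2 change of −6.54 ± 0.22 (SE). AKAP4, the main protein of the fibrous sheath, had 3.25, 3.23 and 0.825 FPKM in cattle-yak and 274, 211 and 207 FPKM in cattle testes. TEKT1, a tektin filament of the axoneme, had 10.8, 8.43 and 3.96 FPKM in cattle-yak and 241, 210.02 and 231 FPKM in cattle testes. All 3 were above 160 FPKM in every cattle testis and below 11 FPKM in every cattle-yak testis. ROPN1L, a protein of the fibrous sheath, had 34.4, 21.3 and 9.55 FPKM in cattle-yak testes, against 306, 325 and 371 FPKM in cattle testes, a change of −4.04 ± 0.34 (SE). HYDIN and CFAP69, which other ciliated cells also use, had log2 changes of −1.82 ± 0.17 and −1.46 ± 0.13 (SE).

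Sperm ion channels and exchangers were 18 lower and 1 higher of 21, with a median of −2.76. ATP1A4, the sodium pump subunit of sperm, had 0.658, 0.770 and 0.222 FPKM in cattle-yak testes, against 47.3, 40.7 and 32.7 FPKM in cattle testes, a change of −4.74 ± 0.17 (SE). ENKUR, a calmodulin-binding protein that tethers to calcium channels, had 12.5, 14.1 and 8.42 FPKM in cattle-yak and 79.6, 85.7 and 83.8 FPKM in cattle testes. SLC26A8, an anion transporter of the sperm annulus, had 6.26, 5.29 and 2.15 FPKM in cattle-yak and 57.1, 62.7 and 53.8 FPKM in cattle testes. None of the 3 overlapped. ATP2B4, a calcium pump also found outside the germ line, rose by 0.73 ± 0.14 (SE), a call that was lost under median-ratio scaling, at 0.24, where none of the list was higher. HVCN1, the proton channel, was not called at 0.34 ± 0.20 (SE) but was called without cattle 3, at 0.56.

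Genes of sperm energy supply were 17 lower and 1 higher of 21, with a median of −2.68. GAPDHS, the sperm form of a glycolytic enzyme, had 3.94, 6.06 and 1.94 FPKM in cattle-yak testes, against 351, 296 and 326 FPKM in cattle testes, a change of −6.11 ± 0.25 (SE). SPATA19, a protein of the mitochondria of the midpiece, had 1.22, 1.38 and 0 FPKM in cattle-yak and 157, 143 and 158 FPKM in cattle testes. PGAM2, a phosphoglycerate mutase, had 13.5, 11.8 and 3.93 FPKM in cattle-yak and 306, 288 and 289.8 FPKM in cattle testes. GAPDH, the form used by other cells, went in the opposite direction at 423, 443 and 530.5 FPKM in cattle-yak testes, against 124, 121 and 91.7 FPKM in cattle testes, a change of 2.05 ± 0.18 (SE). SLC16A7, a lactate and pyruvate transporter, rose by 1.33 ± 0.13 (SE). VDAC3, a pore of the outer mitochondrial membrane, fell by 1.39 ± 0.11 (SE).

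The piRNA pathway, in which small RNAs and their Argonaute partners silence transposons in germ granules, was mixed. Of 24 tested, 13 were called lower, 5 higher and 6 not called, with a median of −0.78. FKBP6, a chaperone of piRNA loading, had 81.1, 88.8 and 44.3 FPKM in cattle-yak testes, against 199.95, 203 and 204 FPKM in cattle testes, a change of −1.55 ± 0.21 (SE). TDRD5, a tudor protein of the pachytene piRNA pathway, had 39.5, 27.8 and 13.5 FPKM in cattle-yak and 107, 101 and 126 FPKM in cattle testes. PIWIL2, an Argonaute that is on from spermatogonia onward, had 32.7, 34.99 and 32.4 FPKM in cattle-yak and 17.5, 17.1 and 19.8 FPKM in cattle testes, a change of 0.85 ± 0.11 (SE). PIWIL2 was higher in each cattle-yak than in each cattle testis, whereas PIWIL1, described above, was lower. GTSF1L, the member with the largest change, fell by 5.04 ± 0.22 (SE).

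The 3 cattle-yaks, with 1 library each, differed in the level of the genes that were lower than in cattle. These genes were not limited to those of spermatids. Among 1268 genes called lower by at least 2 with a cattle mean of at least 10 FPKM, the median level was 8.59, 7.67 and 3.86% of the cattle mean in cattle-yaks 1, 2 and 3. The third animal was the lowest of the 3 in 1053 of these genes, or 83.0%. Among 417 genes called higher by at least 2 with a cattle-yak mean of at least 10 FPKM, the same animal was the highest in 304, with median levels of 4.76, 4.80 and 5.74 times the cattle mean in cattle-yaks 1, 2 and 3. Both sets were chosen on the comparison itself, so only the order of the animals within them is a description of interest. By list, acrosome genes stood at 2.62, 2.83 and 1.22% of their cattle means, flagellar genes at 13.5, 9.48 and 4.69%, and genes of meiotic prophase at 86.3, 91.9 and 57.6%. Genes of the mitotic cycle stood at 115, 132 and 84.1%. The third animal was thus lowest in each of these lists and was the highest for the Sertoli and Leydig lists. Without it 7513 genes were called higher and 4075 lower, and 177 transcript pairs were called.

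**Figure D4:**
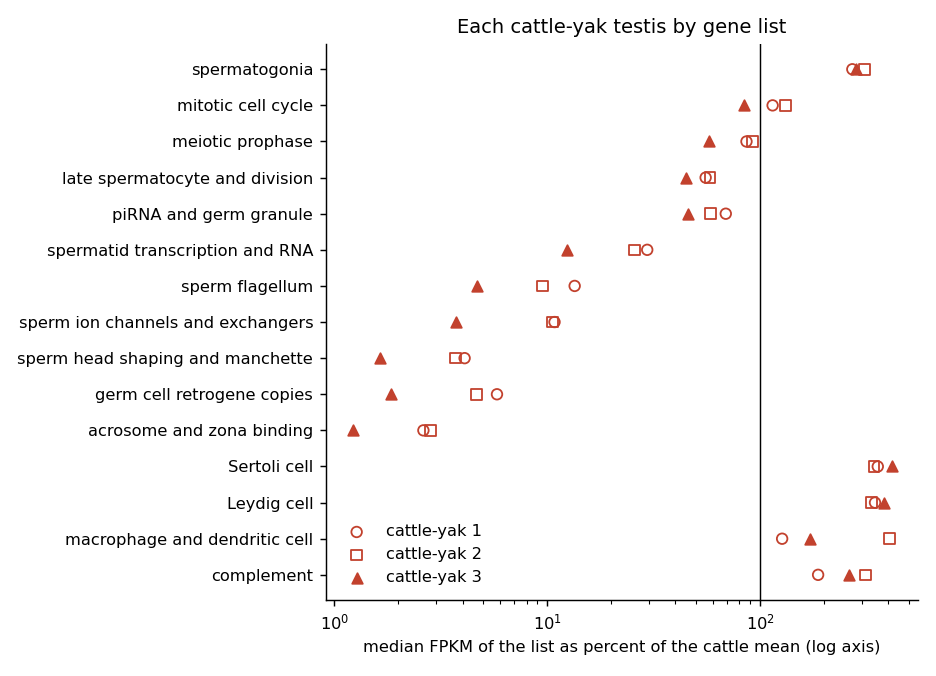
Median level of the members of 15 lists in each cattle-yak testis, as a percentage of the mean of 3 cattle testes on a log axis, over members with a cattle mean of at least 5 FPKM. The vertical line marks the cattle mean at 100%. Cattle-yak 3 (filled triangles) is leftmost in every germ cell list drawn other than spermatogonia, and cattle-yak 2 (squares) stands out to the right for macrophage genes at 405%.

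Somatic marker lists were higher in cattle-yak testis. Of 24 tested Sertoli cell genes, 21 were called higher and 1 lower, with a median of 1.75, and the 27 matched members summed to 2256 to 2606 FPKM in cattle-yak libraries and 557 to 654 FPKM in cattle libraries. INHA, the shared subunit of the inhibins, had 189.6, 189.7 and 225 FPKM in cattle-yak testes, against 33.8, 42.4 and 31.2 FPKM in cattle testes, a log2 change of 2.47 ± 0.25 (SE). WT1, a transcription factor of Sertoli cells, had 27.5, 29.1 and 34.1 FPKM in cattle-yak and 6.93, 7.28 and 6.94 FPKM in cattle testes. FSHR, the receptor of follicle-stimulating hormone, had 22.9, 17.9 and 22.6 FPKM in cattle-yak and 8.999, 7.92 and 8.32 FPKM in cattle testes. None of these 3 overlapped between the groups. HSD17B1, an enzyme that makes estradiol, was the exception at 0.470, 0.385 and 0.243 FPKM in cattle-yak testes, against 18.1, 21.2 and 25.6 FPKM in cattle testes, a change of −4.04 ± 0.15 (SE). GJA1, the gap junction protein of the tubule wall, rose by 2.29 ± 0.27 (SE).

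All 17 tested Leydig cell genes were called higher, with a median of 1.96, and 14 were under median-ratio scaling. The 22 matched members summed to 2246 to 2878 FPKM in cattle-yak libraries, against 433 to 626 FPKM in cattle libraries. INSL3 alone had 1130, 1741 and 1451 FPKM in cattle-yak and 261, 289 and 149 FPKM in cattle testes. STAR, which brings cholesterol into the mitochondrion, had 123, 129 and 187 FPKM in cattle-yak testes, against 13.6, 29.2 and 25.9 FPKM in cattle testes, a change of 2.67 ± 0.27 (SE). HSD17B3, which makes testosterone in its last step, had 60.8, 49.02 and 59.2 FPKM in cattle-yak and 14.2, 15.2 and 19.6 FPKM in cattle testes. PTGDS, a prostaglandin synthase, had 425, 390.01 and 448 FPKM in cattle-yak and 107, 128 and 97.4 FPKM in cattle testes. No cattle-yak value of these 3 genes overlapped the cattle values. FDX1, the electron carrier of the side-chain enzyme, changed by 0.65 ± 0.17 (SE) and stood at 0.10 under median-ratio scaling.

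All 13 tested myoid genes were called higher (median 1.20), among them CALD1, a brake on smooth muscle contraction, at 46.3, 43.2 and 55.7 FPKM in cattle-yak testes, against 10.5, 11.4 and 16.4 FPKM in cattle testes. Of 24 stromal genes, 22 were higher and none was lower (median 1.45). TIMP2, an inhibitor of matrix proteases, had 879, 891 and 1198 FPKM in cattle-yak and 256, 252 and 204 FPKM in cattle testes. COL6A2, a collagen chain, rose by 2.65 ± 0.30 (SE). Of 15 endothelial genes, 11 were higher and 2 lower (median 0.89), at low levels in both kinds of testis. TIE1, a receptor of vessel walls, had 3.73, 2.36 and 3.26 FPKM in cattle-yak testes, against 0.439, 0.568 and 0.714 FPKM in cattle testes, a change of 1.38 ± 0.17 (SE). PROX1, which marks lymph vessels, had 0.616, 0.521 and 0.894 FPKM in cattle-yak and 3.01, 3.31 and 2.38 FPKM in cattle testes. Under median-ratio scaling 19 stromal genes were higher and 1 lower.

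Blood and immune lists moved less uniformly. Of 16 macrophage genes tested, 7 were called higher and 3 lower. The 21 matched members summed to 233 to 448 FPKM in cattle-yak libraries and 213 to 227 FPKM in cattle libraries. C1QB, a chain of the first complement component that macrophages make, had 8.15, 61.1 and 11.7 FPKM in cattle-yak testes, against 7.17, 7.24 and 4.85 FPKM in cattle testes, and C1QA had 16.6, 95.8 and 23.4 FPKM in cattle-yak and 15.5, 13.5 and 9.93 FPKM in cattle testes. The second cattle-yak stood far above the other 2 in both genes, the other 2 stood above the highest cattle value by far less, and neither gene was called (adjusted p = 0.0595 and 0.0632, limma). Without the second animal the log2 changes were 0.56 and 0.59 and neither was called, whereas without the first animal both were called, at 1.94 and 1.82, and C1QB was also called without the third, at 1.70. With libraries scaled to equal totals both were called, at 1.49 and 1.43, and with the replicate number as a block C1QB was called (adjusted p = 0.0358, limma). CD14, a receptor for bacterial lipid, had 2.68, 1.63 and 1.07 FPKM in cattle-yak testes, against 13.3, 12.3 and 13.3 FPKM in cattle testes, a change of −2.36 ± 0.27 (SE). Of 14 lymphocyte genes, 7 were higher and none lower, but under median-ratio scaling 1 was higher and 1 lower. With a pseudocount of 0.1 only 4 were called higher, and with 0.01 only 2. JCHAIN, which joins antibody chains, had 4.61, 5.08 and 5.63 FPKM in cattle-yak and 5.98, 4.36 and 6.01 FPKM in cattle testes and was not called, although under median-ratio scaling it was called lower, at −0.54. Of the mast cell and granulocyte list 2 were higher and 2 lower of 4, and KIT, given above with spermatogonia, was among the higher. CPA3, a mast cell protease, had 0, 0.0279 and 0.0550 FPKM in cattle-yak and 1.59, 2.57 and 2.33 FPKM in cattle testes. Of the red blood cell list 3 of 3 were called lower, led by HEMGN at 0.479, 0.772 and 0.290 FPKM in cattle-yak testes, against 134, 130.1 and 129 FPKM in cattle testes. The haemoglobin genes HBA and HBB were below 1 FPKM in all 6 libraries and ALAS2 was listed at 0 in all, so the defining genes of red blood cells did not move with HEMGN.

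Nerve and glia genes were 6 higher and 1 lower of 7, and UCHL1, given above with spermatogonia, was among the higher. S100B, a calcium-binding protein of glia, had 157, 195 and 256 FPKM in cattle-yak testes, against 49.8, 58.7 and 44.9 FPKM in cattle testes, while GAP43, a growth cone protein, had 0.154, 0.290 and 0.0240 FPKM in cattle-yak and 7.18, 5.301 and 4.84 FPKM in cattle testes. Epithelial genes of the rete testis and epididymis were 3 higher of 4, with PAX2 listed at 0 in all 6 libraries. The part of a changed mix of cells in the germ cell results was not tested.

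Signals that pass between these cells were mostly higher. Of 23 genes of the hedgehog, Notch and Wnt pathways, 21 were called higher and 1 lower, with a median of 1.24. DHH, the hedgehog ligand that Sertoli cells send to Leydig and myoid cells, had 5.84, 5.02 and 4.86 FPKM in cattle-yak testes, against 1.85, 1.74 and 1.33 FPKM in cattle testes, a change of 1.24 ± 0.19 (SE). GLI1, a transcription factor of the same pathway that is also its target, rose by 1.07 ± 0.11 (SE). FZD1, a Wnt receptor, had 12.7, 12.3 and 14.2 FPKM in cattle-yak and 1.37, 1.68 and 1.49 FPKM in cattle testes, and CTNNB1, the β-catenin that carries the Wnt signal, had 108, 101 and 101 FPKM in cattle-yak and 46.1, 48.6 and 47.9 FPKM in cattle testes. LEF1, a transcription factor that β-catenin binds, went the other way at 4.39, 6.21 and 5.47 FPKM in cattle-yak testes, against 20.5, 18.2 and 22.8 FPKM in cattle testes, a change of −1.76 ± 0.14 (SE).

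Of 31 growth factor genes, 25 were higher and 6 lower, with a median of 1.12. PDGFA, a ligand for the receptors of Leydig and myoid precursors, had 9.54, 14.9 and 21.5 FPKM in cattle-yak testes, against 1.64, 2.04 and 1.25 FPKM in cattle testes, a change of 2.57 ± 0.26 (SE). PDGFRA, its receptor, had 46.9, 37.8 and 53.6 FPKM in cattle-yak and 9.98, 13.7 and 17.4 FPKM in cattle testes. IGF2, an insulin-like growth factor, had 54.9, 65.5 and 71.1 FPKM in cattle-yak and 20.5, 21.8 and 16.97 FPKM in cattle testes. Ligand and receptor of the platelet-derived pathway were thus both higher. BMP7, a bone morphogenetic protein, had 1.72, 1.26 and 1.02 FPKM in cattle-yak testes, against 17.9, 16.96 and 16.5 FPKM in cattle testes, a change of −2.97 ± 0.21 (SE), and IGF1R, the receptor of insulin-like growth factors, had 27.9, 22.3 and 18.1 FPKM in cattle-yak and 51.4, 45.8 and 64.98 FPKM in cattle testes, a change of −1.22 ± 0.17 (SE).

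Of 19 complement genes, 12 were higher and 1 lower, with a median of 1.28. C1S, a protease that starts the classical pathway, had 117, 123 and 132 FPKM in cattle-yak testes, against 32.3, 47.8 and 41.9 FPKM in cattle testes, a change of 1.60 ± 0.45 (SE). CD59, which blocks the final pore, was not called at −0.10 ± 0.11 (SE) but was called lower under median-ratio scaling, at −0.65. Of 14 genes of antigen presentation, 11 were higher and none lower, with a median of 1.13 and 5 higher under median-ratio scaling. PSMB9, a subunit of the immunoproteasome, had 76.4, 93.6 and 113 FPKM in cattle-yak and 26.9, 23.1 and 18.3 FPKM in cattle testes. The transcripts of the BOLA class I genes were uneven among animals of one kind, with BOLA at 73.5, 168 and 20.9 FPKM in cattle-yak testes, against 34.2, 4.21 and 28.9 FPKM in cattle testes. BOLA was not called at 1.88 ± 0.90 (SE), and it was called without cattle-yak 3, at 2.67.

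Of 18 interferon response genes, 10 were higher, 2 lower and 6 not called, with a median of 0.74. IRF1, a transcription factor induced by interferon, had 18.1, 18.5 and 24.5 FPKM in cattle-yak testes, against 7.88, 8.91 and 8.16 FPKM in cattle testes, a change of 1.19 ± 0.25 (SE).

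Of 23 genes of p53 and apoptosis, 17 were higher and 3 lower, with a median of 1.14. GADD45A, a p53 target that slows the cell cycle, had 27.5, 28.3 and 37.4 FPKM in cattle-yak testes, against 4.27, 6.85 and 6.02 FPKM in cattle testes, a change of 2.26 ± 0.24 (SE). CCNG1, another p53 target, had 183, 213 and 226 FPKM in cattle-yak and 51.5, 54.4 and 46.5 FPKM in cattle testes. BAX, which opens the mitochondrion in apoptosis, and BCL2, which holds it shut, rose by 1.88 ± 0.20 and 1.73 ± 0.14 (SE). BIRC5, a survivin that also acts in the chromosomal passenger complex of dividing cells, had 33.8, 42.4 and 32.2 FPKM in cattle-yak testes, against 90.4, 112 and 92.6 FPKM in cattle testes, a change of −1.42 ± 0.14 (SE).

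Heat shock and unfolded protein genes had shares of calls near the 54.4% higher and 30.0% lower of all genes tested. Of 26 tested, 15 were higher and 7 lower, with a median of 0.48 that turned to −0.08 under median-ratio scaling. PDILT, a disulfide isomerase of spermatids, had 1.59, 1.33 and 0.0258 FPKM in cattle-yak testes, against 94.6, 87.2 and 121 FPKM in cattle testes, a change of −5.78 ± 0.31 (SE). HSPA4L, a chaperone abundant in germ cells, had 51.2, 40.3 and 17.7 FPKM in cattle-yak and 358, 338 and 392 FPKM in cattle testes. HSPA8, the constant heat shock protein of most cells, had 759, 848 and 827 FPKM in cattle-yak and 197, 200.4 and 180.4 FPKM in cattle testes, a change of 2.07 ± 0.15 (SE). HSP90AA1, a heat shock protein abundant in germ cells, had 944, 995 and 709 FPKM in cattle-yak testes, against 889, 907 and 956 FPKM in cattle testes and was not called at −0.07 ± 0.15 (SE), and under median-ratio scaling it was called lower, at −0.64. The germ line forms were chosen for mention after their values were seen.

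Of 14 immediate early genes, 11 were higher and 1 lower, with a median of 1.37. JUN, a subunit of the AP-1 transcription factor, had 22.9, 21.6 and 24.2 FPKM in cattle-yak testes, against 4.78, 5.04 and 6.396 FPKM in cattle testes, a change of 1.91 ± 0.14 (SE). KLF4, a factor that is strong in round spermatids in mice, had 6.18, 5.697 and 6.26 FPKM in cattle-yak and 32.8, 34.97 and 41.2 FPKM in cattle testes, a change of −2.40 ± 0.14 (SE). Of 17 housekeeping genes, 13 were higher and 1 lower, with a median of 0.96. ACTB, the actin of all cells, had 591, 753 and 809 FPKM in cattle-yak testes, against 177, 182 and 150.4 FPKM in cattle testes, a change of 2.07 ± 0.21 (SE). Of the list 3 members were not called, RPS18, a ribosomal protein, among them at 0.21 ± 0.14 (SE). Under median-ratio scaling 9 were higher and 2 lower, with a median of 0.43. The 5 most abundant genes with the smallest changes after HSP90AA1 were ribosomal, and RPS7, of the small subunit, had 507, 578 and 574 FPKM in cattle-yak and 550.4, 595 and 564 FPKM in cattle testes, a change of −0.04 ± 0.11 (SE) that stood at −0.61 under median-ratio scaling.

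Some genes were close to absent from 1 kind of testis. In all, 365 genes were below 1 FPKM in every cattle-yak library and at least 5 FPKM in every cattle library, and 18 had the reverse. With a limit of 0.1 FPKM the numbers were 19 and 0. SPADH1, of the spermadhesin family known from seminal fluid, was listed at 0, 0.0538 and 0 FPKM in cattle-yak testes, against 42.6, 46.8 and 45.2 FPKM in cattle testes. ODF3, an outer dense fibre protein, had 0.0466, 0.0575 and 0.0568 FPKM in cattle-yak testes, against 13.7, 14.9 and 15.9 FPKM in cattle testes. PAG9, of a family of aspartic proteases known from the placenta, had 0, 0.0672 and 0 FPKM in cattle-yak and 28.7, 22.9 and 26.02 FPKM in cattle testes. In the reverse direction levels were far lower. CDCP1, a membrane protein of epithelia, had 2.08, 3.097 and 2.39 FPKM in cattle-yak testes, against 0.0328, 0.0344 and 0.0787 FPKM in cattle testes, a log2 change of 1.74 ± 0.13 (SE). ACMSD, an enzyme of tryptophan breakdown, had 2.62, 1.76 and 2.03 FPKM in cattle-yak and 0.0335, 0 and 0 FPKM in cattle testes. NDP, a secreted Wnt-pathway ligand, was listed at 0 in all 3 cattle libraries and had 0.933, 1.42 and 2.04 FPKM in cattle-yak libraries, and it was not among the genes tested.

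Where a gene had more than 1 transcript in the table, the transcripts could move apart. Pairs of the 2 most abundant transcripts were tested for 628 genes, and 216 pairs, or 34.4%, were called for a difference between the changes of the 2 transcripts. In 58 of these both transcripts were called in opposite directions. The share of reads given to each transcript is an estimate of the authors' software, and its error is not known.

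CDYL, a chromatin protein that acts on histone marks in spermatids, had transcripts that moved in opposite directions. Its transcript ENSBTAT00000063533 had 0.597, 0.743 and 0.0387 FPKM in cattle-yak testes and 62.3, 66.1 and 68.9 FPKM in cattle testes. Its transcript ENSBTAT00000021803 had 22.6, 23.4 and 25.6 FPKM in cattle-yak testes and 4.53, 4.28 and 5.90 FPKM in cattle testes. The 2 changes were −5.55 and 2.08 (adjusted p of the difference 8.01e-06, limma). CDC14A, a phosphatase of the cell cycle, had a different transcript in each kind of testis, at unequal levels. ENSBTAT00000008825 was listed at 0 in all 3 cattle-yak testes and had 34.6, 29.9 and 35.4 FPKM in cattle testes. ENSBTAT00000065355 had 4.58, 5.58 and 5.78 FPKM in cattle-yak testes and was listed at 0 in all 3 cattle testes.

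CAST, which encodes calpastatin, the inhibitor of calpain proteases, fell by 5.21 for one transcript and rose by 3.13 for the other. ACSL5, a fatty acid ligase, gave −5.65 and 2.66. ARL2BP, a binding partner of a small GTPase, fell by 6.46 for its abundant transcript while the other changed by −0.05. Among pairs in the other direction, SNX1, a sorting protein of endosomes, rose by 0.69 for its abundant transcript and fell by 3.89 for the second. In PRMT2 and PARP2 the cattle libraries did not resemble each other, PARP2's abundant transcript being listed at 0 in cattle 1 and 3 and at 7.47 FPKM in cattle 2, and their pairs were called at adjusted p of 0.0252 and 0.0418 (limma). Both calls were lost when any 1 of the 6 libraries other than cattle 2 was left out, with differences of 2.71 to 3.58 for PRMT2 and 3.62 to 4.67 for PARP2. They were also lost with a pseudocount of 0.1 and with only the 6 libraries, and that of PARP2 also under median-ratio scaling and with the replicate number as a block.

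**Figure D5:**
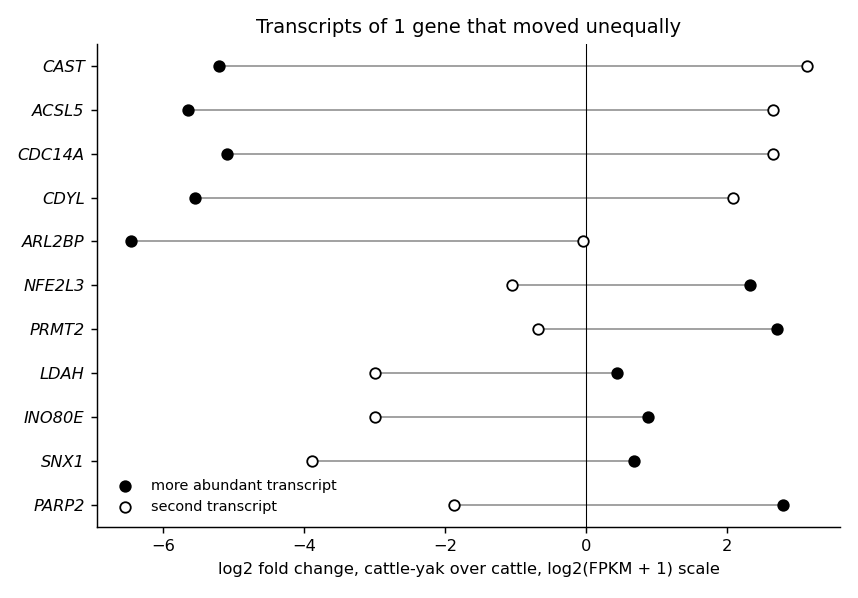
Log2 fold change, cattle-yak over cattle on the log2(FPKM + 1) scale, of the 2 transcripts of 11 genes that the naming rule took from the 216 pairs called, with the transcript that was more abundant over the libraries as a filled circle and the second as an open one. The first 5 genes have the abundant transcript on the left of 0, and the last 6 have it on the right. CDYL, CDC14A, CAST and ACSL5 have the second transcript on the right of 0, and that of ARL2BP lies near 0.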

How the data were processed

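RNA was depleted of ribosomal RNA and read from both ends at 125 nt, per the labels. According to the submitters' processing notes, the programs were StringTie (1.3.4), HISAT2 (2.0.5), Bowtie, Trimmomatic and Cufflinks, with the cattle build UMD3.1 and no role stated for any of them. The authors deposited mRNA levels as FPKM per transcript, and no source names the program behind those values. Ratios of low FPKM values between libraries did not gather at 1 value (0.966 to 1.45% of 621 transcripts at the commonest ratio), so the step of 1 read could not be read off. This check cannot tell whether the values came from whole reads. Depth is unknown and no count test was used. The circRNA and small RNA data were not analysed here.

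FPKM were summed per gene. A limma model (3.58.1, under R 4.3.3) took log2(FPKM + 1) of all 9 libraries with a term for kind of animal and empirical Bayes with a trend. Its p-values are two-sided, with Benjamini-Hochberg adjustment across the 14091 genes. A difference is cattle-yak minus cattle, and genes at low FPKM change by more than this scale shows. A transcript pair was the difference of log2(FPKM + 1) between the 2 most abundant transcripts of a gene, adjusted across 628 pairs. The script was tested on simulated data. The p-values measure the spread between the sampled animals.

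The comparison and the 34 gene lists were chosen with earlier results of these data known. Of 788 listed genes 717 were matched by symbol, 1 of them by an older symbol, and 635 were tested. The naming rule took the 12 highest and the 12 lowest log2 changes among called genes with a symbol, no overlap between the kinds and at least 5 FPKM on average in the kind where they were higher. It also took the 3 most abundant members and the largest change of each list, the 10 most abundant genes of each kind, genes under 0.1 FPKM in 1 kind, abundant genes with the smallest changes, and 6 transcript pairs in each direction. Genes in an earlier account of these data were passed over. Other genes were named after their values were seen, and some that the rule took are not given. Chromosomes and promoters were not analysed here.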

Additional observations from a re-analysis of the deposited data

How the results depend on the processing

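The counts of genes called kept within 1.5 times of their values under all 17 alternatives for pseudocount, filter, scaling, library set, block and trend. They did not with the requirement of a change of at least 1, which left 7309 genes called, 4496 higher and 2813 lower, because it takes part of the calls by construction. Leaving out 1 library at a time gave 11565 to 11679 genes called, 7424 to 7564 higher and 4060 to 4218 lower, and 177 to 198 transcript pairs. Transcript pairs numbered 164 with a pseudocount of 0.1, against 216 with a pseudocount of 1. No paired design is given by the labels, and the replicate numbers did not pair the libraries (correlations of same-numbered deviations of −0.05, −0.01 and −0.11). With the replicate number as a block, 11805 genes and 198 transcript pairs were called.

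Of 170 genes named in the text, 149 kept direction and call in every alternative. Median-ratio scaling also moved counts within lists by over 1.5 times, to 1 against 5 higher for the piRNA pathway, 6 against 10 higher for interferon response and 6 against 3 lower for p53 and apoptosis, besides lists given above. The pseudocount moved the number of lymphocyte genes called higher, as given above. Direction turned under median-ratio scaling for CSTF2T (−0.21), GOPC (−0.49), H3F3B (−0.041), HVCN1 (−0.026), RPS18 (−0.36), STRA8 (−0.075), TOP2A (−0.084) and UBE2B (−0.19). With equal totals it turned for CD59 (0.0076), HORMAD1 (0.017), HSP90AA1 (0.035), JCHAIN (0.015) and RPS7 (0.061), and with quantile normalisation for HORMAD1 (0.13) and USP7 (0.058). With 1 library left out, HORMAD1 lay between −0.25 and 0.17 and HSP90AA1 between −0.16 and 0.079, both positive without cattle-yak 3, and RPS7 lay between −0.077 and 0.017, positive without cattle-yak 1. The cause was not tested.

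The unknown depth leaves low FPKM without an error of its own, and 3 animals of each kind limit what can be called. The spread is between animals of 1 cooperative. Reads of a hybrid met a cattle build per the submitters' processing notes. What this does to single genes, the mitochondrial genes included, was not tested.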
